A study of Arabidopsis thaliana with 12 samples.

Results

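What sid2 changes in the ssi2 background was addressed by setting leaves of ssi2 sid2 double mutants against leaves of ssi2 single mutants of Arabidopsis thaliana. The comparison used 6 of the 12 arrays of the series, 3 ssi2 sid2 arrays and 3 ssi2 arrays, chosen by the genotype in the sample labels. It covered all 22746 probe sets of the ATH1 array that are not controls. The other 6 arrays, 3 of ssi2 act1 leaves and 3 of wild type Col-0 leaves, gave the levels around it and entered the fit for the spread. The labels give Col-0 as the genetic background of all 4 genotypes, an age of 4 weeks in the sample characteristics and of 3 to 4 weeks in the growth protocol, and total leaf RNA as the material. Both groups of the comparison carry ssi2, and by the labels they differ in sid2. Other differences between the lines cannot be told apart from it. The labels call the replicates biological but do not say whether their plants were raised separately, so the p-values rest on the spread among these arrays, part of which may be technical.

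SID2 encodes isochorismate synthase, the chloroplast enzyme that makes most of the salicylic acid that accumulates in Arabidopsis leaves under attack. Salicylic acid acts through the NPR1 coactivator and TGA transcription factors, is inactivated by glucosylation and methylation, and is known to restrain part of the jasmonate response. SSI2 encodes a plastid stearoyl desaturase that makes oleic acid, and ssi2 plants are known for small stature, spontaneous lesions, high salicylic acid and defence genes that are on without a pathogen. ACT1 encodes the plastid glycerol-3-phosphate acyltransferase, which consumes oleic acid, and its loss is known to restore oleic acid in ssi2.

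Values are signals, the brightness of a probe set and in the deposited values every array has a trimmed mean of 500 to 500.1. Differences are given on the log2(signal + 16) scale as ssi2 sid2 minus ssi2 unless another pair is named. A negative difference thus means a lower signal in ssi2 sid2. Whether the probes bind equally well in every line was not tested. A probe set was called where limma's moderated test gave an adjusted p under 0.05 over all probe sets. Each level is given as the signals of replicates 1, 2 and 3 in that order. Leaf genes were bright on every array: RCA, the Rubisco activase gene, had signals of 16668, 18116 and 19771 in ssi2 sid2 and 21357, 18226 and 11679 in ssi2. The root gene PYK10 had 37.6, 42.5 and 22.7 in ssi2 sid2 and 308, 214 and 37.2 in ssi2, a difference of -1.68 ± 0.52 (SE) with a limma adjusted p of 0.116. Without ssi2 replicate 3, whose PYK10 signal lies inside the ssi2 sid2 range, that adjusted p was 0.00204. Neither SID2 nor SSI2 could be tied to a probe set of its own through the annotation, so they were not analysed here and the labels were not checked on the mutated genes. The same holds for PR1, PR2 and PR5, the usual salicylic acid markers.

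Array medians lay between 95.7 and 158, and 16.9% to 21.8% of probe sets had a signal under 16. Within a genotype arrays correlated with Pearson's r of 0.914 to 0.982. On the second principal component the second ssi2 sid2 array scored 7.38, where ssi2 sid2 replicates 1 and 3 had 59.1 and 60.4. The third ssi2 array stood apart on it, with -92.9, where ssi2 replicates 1 and 2 had -2.5 and -28.8.

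In ssi2 sid2 389 probe sets were lower and 322 higher than in ssi2. They are 1.71% and 1.42% of those tested, and 383 and 318 of them differed by at least 1. The lowered probe sets represented 206 named genes and the raised ones 192, of 13356 genes with a probe set of their own, and 178 and 173 of these genes are known in the annotation only by a locus code. Over these 13356 genes 1.54% fell, 1.44% rose and 5851 had a positive difference, which is the background for the gene groups described here. In all 711 the 3 ssi2 sid2 arrays lay wholly above or wholly below the 3 ssi2 arrays, against 23.9% of all probe sets. The median difference over all genes was -0.06, and it was 0.01 after quantile normalization and 0.09 after median centring. Higher calls made up 45.3% of the total with the deposited scaling, 55.0% after quantile normalization and 61.4% after median centring, so the balance between the directions depends on the scaling. Lowered probe sets numbered 162 without ssi2 replicate 2, 257 without ssi2 replicate 3, and 162, 242 and 124 without ssi2 sid2 replicates 1, 2 and 3. Raised ones numbered 172 without ssi2 replicate 3, and 114 and 109 without ssi2 sid2 replicates 1 and 3.

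Most of the lowered probe sets were elevated in ssi2 alone. In 309 of the 389 the 3 ssi2 arrays lay above all 9 arrays of the other 3 genotypes, which 4.16% of all probe sets did. Of the 322 raised, 155 had ssi2 arrays below all 9 others, which 2.20% of all probe sets did. The same ssi2 arrays chose these probe sets, so the shares describe them and test nothing. The median level of the lowered probe sets was 6.52 in ssi2 sid2, 8.65 in ssi2, 6.44 in ssi2 act1 and 6.13 in wild type (log2 scale). For the raised ones it was 9.60 in ssi2 sid2, 7.62 in ssi2, 8.62 in ssi2 act1 and 8.81 in wild type.

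**Figure D1:**
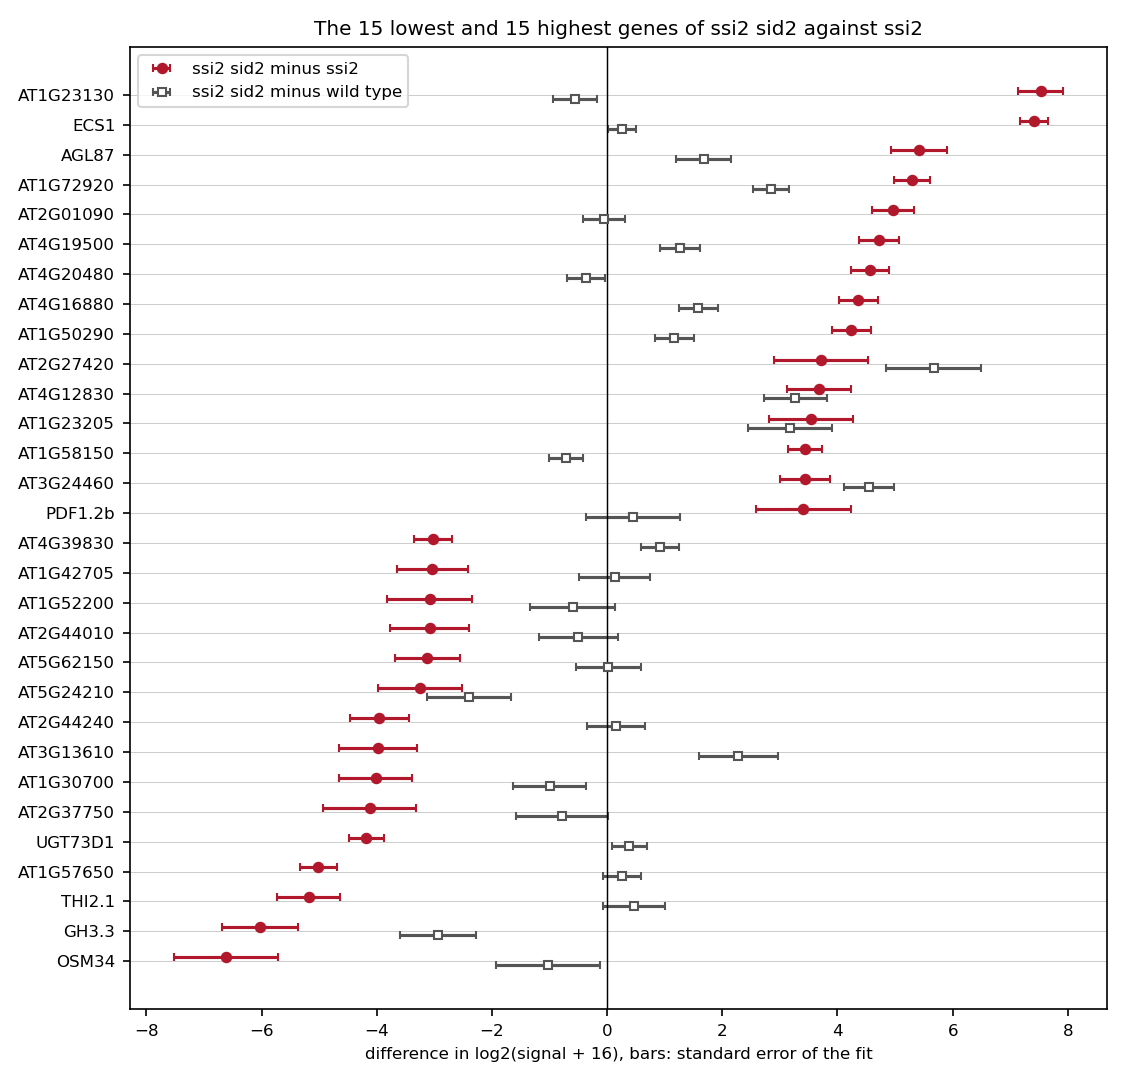
The difference ssi2 sid2 minus ssi2 (filled circles) and ssi2 sid2 minus wild type (open squares) of the 15 highest and 15 lowest genes, in log2(signal + 16), with bars for the standard error of the limma fit over 3 arrays a genotype. The lowest genes mostly lie near 0 against wild type, while AT1G72920, AT2G27420, AT4G12830, AT1G23205 and AT3G24460 lie above 2 in both comparisons.

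Of the genes that fell, OSM34 and THI2.1 encode small secreted antimicrobial proteins. OSM34, an osmotin of the thaumatin family, had signals of 18.7, 5.11 and 13.7 in ssi2 sid2, against 1635, 3111 and 3988 in ssi2. THI2.1, a thionin known as a jasmonate-inducible toxin, had 59.4, 83.7 and 24.7 in ssi2 sid2, against 6065, 2398 and 985 in ssi2. The ranges are more than an order of magnitude apart for both genes, and both fell, by 6.62 ± 0.90 and 5.18 ± 0.54 (SE, limma adjusted p = 0.00249 and 0.000487). In ssi2 act1 OSM34 had 19.2, 21.1 and 65.4, and in wild type 5.93, 375 and 5.44, so the second wild type array stood above the other two. THI2.1 lay between 30.1 and 45.8 in ssi2 act1 and between 21.3 and 45.3 in wild type, which overlaps the ssi2 sid2 range.

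ChiC, a chitinase, had 68.7, 48.8 and 31.8 in ssi2 sid2, against 409, 412 and 329 in ssi2. Its 2 ranges do not overlap, and it fell by 2.63 ± 0.34 (SE, limma adjusted p = 0.00193). Among the 21 antimicrobial proteins with a probe set of their own 4 fell, OSM34, THI2.1, ChiC and the defensin-like LCR69, and 1 rose, the defensin PDF1.2b. These are 19.0% and 4.76%, against 1.54% lower and 1.44% higher over all genes, and without ssi2 replicate 3 the counts were 3 and 0. LCR69 fell by 1.26 ± 0.28 (SE), a call that was lost after median centring (0.0836), with the replicate number as a block (0.0688) and without any one of ssi2 replicates 1 to 3 or ssi2 sid2 replicates 1 and 3 (limma adjusted p = 0.0326 with all arrays, 0.0507 to 0.16 without one). The LCR69 call was also lost with a pseudocount of 1 and with the 6 arrays alone (limma adjusted p = 0.0868 and 0.0575). The median of the 21 was -0.14 against -0.06 over all genes, and it was 0.02 after median centring. CHI, a putative chitinase, stayed bright in ssi2 sid2 with 4037, 949 and 4355, against 8122, 9265 and 8646 in ssi2, and did not pass the test (adjusted p = 0.455 in limma). It had 12, 57.7 and 457 in ssi2 act1, and its difference between ssi2 sid2 and ssi2 act1 was 4.70 with an adjusted p of 0.0203.

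**Figure D2:**
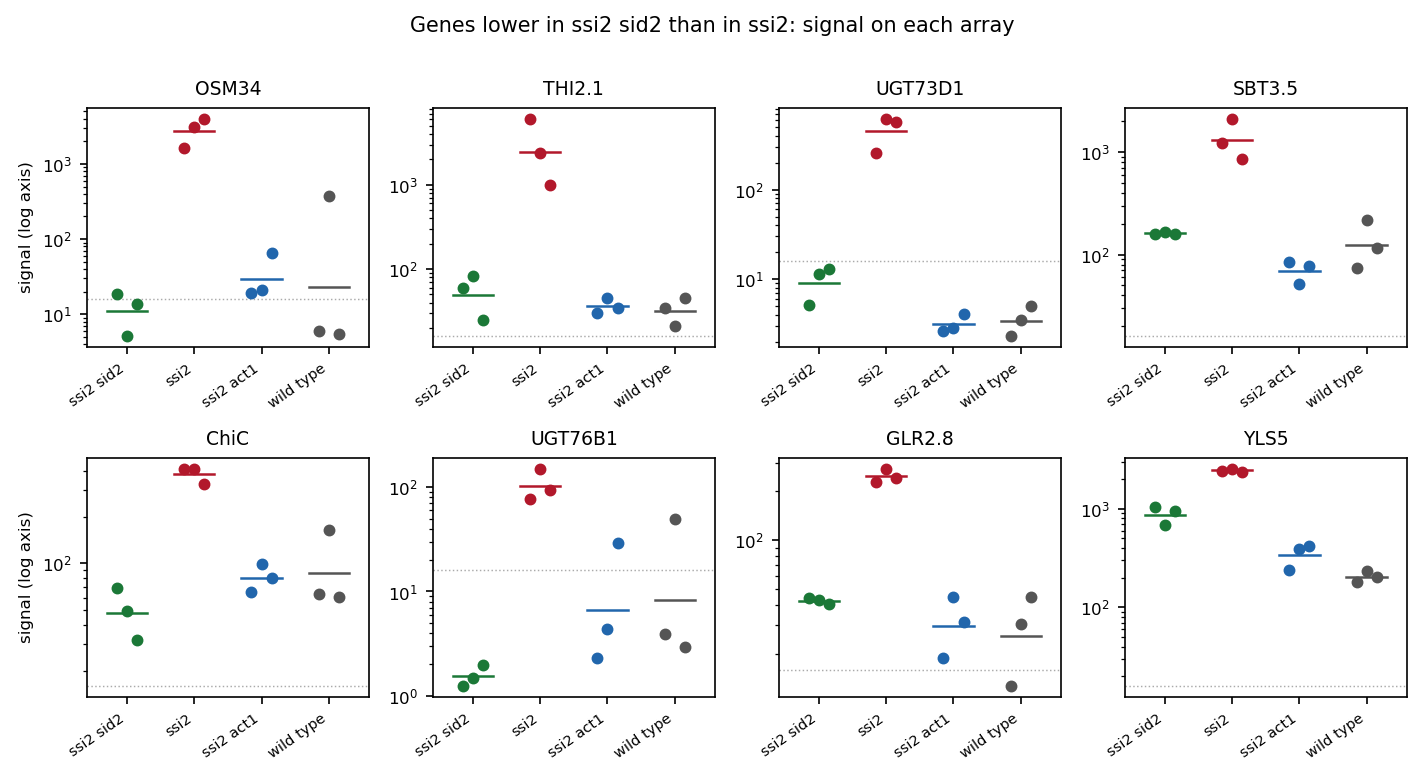
Signal of 8 genes that fell in ssi2 sid2 relative to ssi2, on each of the 12 arrays (log axis; points are arrays, lines geometric means of 3, the dotted line marks a signal of 16). In each panel the 3 ssi2 points lie above the 9 others, and YLS5 in ssi2 sid2 (677 to 1036) lies between ssi2 and wild type (182 to 234).

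Enzymes that attach sugars to small molecules fell in part. UDP-glycosyltransferases move glucose or another sugar onto hormones and defence compounds, and 4 of the 47 measured fell, 8.51% against 1.54% over all genes. None of them passed the test upward, although 17 differences were positive, and without ssi2 replicate 3 the lower count was 5. UGT73D1 had 5.13, 11.5 and 13 in ssi2 sid2, against 253, 615 and 572 in ssi2. It was at the level of dim probe sets in every genotype but ssi2, with 2.64 to 4.13 in ssi2 act1 and 2.32 to 5.02 in wild type, and fell by 4.18 ± 0.31 (SE, limma adjusted p = 4.01e-05). UGT76B1, which glucosylates salicylic acid and isoleucic acid, had 1.24, 1.47 and 1.97 in ssi2 sid2, against 77.4, 151 and 95 in ssi2. It fell by 2.77 ± 0.48 (SE, limma adjusted p = 0.00988), and its wild type signals were 3.91, 49.7 and 2.92, again with the second array above the others. UGT71B5 fell by 2.31 ± 0.32 (SE, adjusted p = 0.00264), and UGT71B6, which glucosylates abscisic acid, fell by 2.52 ± 0.62 (SE, adjusted p = 0.0497, both limma). The call of UGT71B6 was lost after quantile normalization and median centring (0.0638 and 0.0614), with a pseudocount of 1 (0.218) and without ssi2 replicate 1, 2 or 3 or ssi2 sid2 replicate 1 or 3 (0.092 to 0.215). The median of the 47 was -0.18, and -0.08 and -0.03 after quantile normalization and median centring.

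The enzymes that methylate salicylic or jasmonic acid or glucosylate salicylic acid were 5, of which UGT76B1 fell and JMT rose. That is 20.0% in each direction, against 1.54% lower and 1.44% higher over all genes. UGT74F1, a salicylic acid glucosyltransferase, differed by 0.50 (limma adjusted p = 0.681). BSMT1, a salicylic acid methyltransferase, had 122, 45.2 and 116 in ssi2 sid2 and 65.3, 158 and 3.85 in ssi2. Its ranges overlap widely.

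Of 21 auxin genes 1 fell, 4.76% against 1.54% over all genes, and none rose. The 1 that fell was GH3.3, which joins auxin to amino acids. It had 22.2, 69.2 and 16.5 in ssi2 sid2, against 1480, 3538 and 5546 in ssi2, and fell by 6.03 ± 0.66 (SE, limma adjusted p = 0.000666). Its level in ssi2 sid2 was also below wild type, which had 633, 133 and 476 (-2.94 ± 0.66 SE, limma adjusted p = 0.0213). That call was lost with a pseudocount of 64 and on leaving out replicate 1 or 3 of either genotype (adjusted p up to 0.105). WES1, another GH3 enzyme that also acts on salicylic acid and auxin, had 72.6, 221 and 74.8 in ssi2 sid2 and 245, 395 and 1784 in ssi2. Those ranges do not overlap, but the limma adjusted p was 0.0827, and 0.0405 without ssi2 replicate 1. The median of the auxin genes was 0.11.

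Salicylic acid response and signalling were represented by few measured genes. GRX480, a glutaredoxin that binds TGA factors and is induced by salicylic acid, had 84.5, 121 and 53.2 in ssi2 sid2, against 501, 466 and 243 in ssi2. In ssi2 act1 it had 42.9 to 82.6 and in wild type 24.3 to 87.6, so the ssi2 sid2 range overlaps both. It fell by 2.03 ± 0.41 (SE, limma adjusted p = 0.0214), a call lost after quantile normalization and after median centring (0.0502 each), with a pseudocount of 1 (0.0614), without ssi2 replicate 1 or 2 (0.0677 and 0.0837) and without ssi2 sid2 replicate 1 or 3 (0.0782 and 0.113). WRKY53, a transcription factor of senescence and defence, had 406, 860 and 352 in ssi2 sid2, against 1434, 1154 and 1108 in ssi2. The 2 ranges do not overlap, yet it did not pass the test (-1.27 ± 0.34 SE, adjusted p = 0.0714), and it was called without ssi2 sid2 replicate 2 (0.0208) and with a pseudocount of 64 (0.0467). It stayed above ssi2 act1, where it had 80.4, 120 and 114 (2.11, adjusted p = 0.00535), and above wild type with 93.3, 147 and 78.2 (2.11, adjusted p = 0.00478).

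Among 17 genes grouped as immune receptors, kinases and signalling 2 fell, GRX480 and PUB24, and 1 rose, ECS1, which is 11.8% and 5.88% against 1.54% and 1.44% over all genes. ECS1 is a cell wall protein gene, GRX480 a glutaredoxin and PUB24 a ubiquitin ligase, so neither share holds a receptor or kinase. Without ssi2 replicate 3 the counts were 1 and 1. After quantile normalization 0 of the 17 were called lower and 2 higher, and median centring gave the same counts. PUB24 encodes a U-box ubiquitin ligase that dampens responses to microbial patterns together with PUB22 and PUB23. It had 301, 465 and 242 in ssi2 sid2, against 725, 933 and 792 in ssi2, and fell by 1.28 ± 0.30 (SE, limma adjusted p = 0.0379). The call of PUB24 was lost after quantile normalization and median centring (0.0624 and 0.105), with a pseudocount of 1 (0.0946), with the 6 arrays alone (0.0656) and without any one of ssi2 replicates 1 to 3 or ssi2 sid2 replicates 1 and 3 (0.064 to 0.181). PUB22 had 82.9, 166 and 114 in ssi2 sid2, against 15.6, 59.8 and 9.65 in ssi2, a difference of 1.75 that did not pass the test with the deposited scaling (adjusted p = 0.0668) and passed it after quantile normalization and median centring (0.0314 and 0.0233) and without ssi2 replicate 2 (0.0372). SAG101, a partner of EDS1 upstream of salicylic acid synthesis, had 201, 157 and 177 in ssi2 sid2, against 276, 603 and 488 in ssi2, with a limma adjusted p of 0.0538 (0.0187 without ssi2 replicate 1). The median of the 17 was -0.76, and 12 of the differences were negative.

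All 6 measured senescence genes had negative differences, with a median of -1.40 against -0.06 over all genes, and 3 of them fell, as 1.54% of all genes did. YLS5, named for yellowing leaves, had 1036, 677 and 946 in ssi2 sid2, against 2434, 2554 and 2375 in ssi2. It fell by 1.48 ± 0.26 (SE, limma adjusted p = 0.011), and the call was lost after median centring (0.0565). YLS5 in ssi2 sid2 stayed above wild type, which had 182, 234 and 202 (2.01 ± 0.26 SE, adjusted p = 0.00172). SAG29, a SWEET sugar transporter of ageing leaves, had 2.36, 14.1 and 7.5 in ssi2 sid2, against 212, 195 and 28.2 in ssi2. AtS40-3, a regulator of senescence, had 1.83, 3.48 and 5.08 in ssi2 sid2, against 58.4, 55.8 and 33.2 in ssi2. The ranges of both genes are apart, and both fell, by 2.45 ± 0.54 and 1.72 ± 0.36 (SE, limma adjusted p = 0.0312 and 0.0261). Both calls were lost without ssi2 replicate 1 or 2 or any one ssi2 sid2 replicate (SAG29 0.0589 to 0.125, AtS40-3 0.0685 to 0.104). SAG29 also lost its call with pseudocounts of 1 and 64 (0.0513 and 0.0575) and with the 6 arrays alone (0.0948), and AtS40-3 after median centring (0.0728). WRKY6, a senescence-induced factor, had 215, 495 and 150 in ssi2 sid2 and 642, 875 and 513 in ssi2, which did not pass (adjusted p = 0.17), and it was higher than wild type, where it had 4.72, 52.8 and 24.9 (adjusted p = 0.00557). The summed signal of the 6 genes was 1637 to 2207 in ssi2 sid2, 4545 to 5437 in ssi2, 605 to 800 in ssi2 act1 and 391 to 576 in wild type. In whole leaves, fewer cells of a kind and less RNA per cell cannot be told apart.

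Channels, proteases and detoxifying enzymes also had lowered members. GLR2.8, a glutamate receptor-like cation channel, had 43.9, 43.1 and 40.3 in ssi2 sid2, against 228, 276 and 240 in ssi2, and fell by 2.17 ± 0.30 (SE, limma adjusted p = 0.00249). ATGLR1.2 of the same family fell by 1.51 ± 0.27 (adjusted p = 0.0127), a call lost without ssi2 replicate 2 (0.0532) or ssi2 sid2 replicate 1 (0.0612). These were 2 of the 8 measured channels, against 1.54% lower over all genes, and the other 6 did not pass the test. GLR2.7 had 189, 211 and 183 in ssi2 sid2 and 134, 307 and 194 in ssi2, an overlap, and its level in ssi2 sid2 exceeded that in ssi2 act1, 1.99 to 5.23, by 3.43 ± 0.31 (SE, limma adjusted p = 0.000496).

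SBT3.5, a subtilisin-like protease, had 159, 168 and 159 in ssi2 sid2, against 1220, 2117 and 857 in ssi2. It fell by 2.89 ± 0.38 (SE, limma adjusted p = 0.00218) and was the single called member of 9 subtilases, 11.1% lower against 1.54% over all genes. Glutathione S-transferases, which conjugate toxins to glutathione, had 3 lowered members of 14, 21.4% against 1.54% over all genes, and 2 without ssi2 replicate 3. GSTU27 had 749, 554 and 673 in ssi2 sid2, against 2422, 1891 and 2103 in ssi2, and fell by 1.68 ± 0.31 (SE, adjusted p = 0.0133, 0.0591 without ssi2 sid2 replicate 3). GSTU25 and GSTU15 fell by 2.03 and 1.18 (limma adjusted p = 0.0327 and 0.0326). Both of these calls were lost without ssi2 replicate 2 or ssi2 sid2 replicate 1 or 3 (0.0547 to 0.158), GSTU25 also without ssi2 replicate 1 (0.0681) or ssi2 sid2 replicate 2 (0.0769), and GSTU15 also without ssi2 replicate 3 (0.0974). With the 6 arrays alone neither was called (0.108 and 0.092), nor was GSTU25 with a pseudocount of 64 (0.102) or GSTU15 with a pseudocount of 1 (0.0865) or after median centring (0.0655). Of the 14 differences 6 were positive, and the median of -0.09 turned to 0.06 after median centring.

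F6'H1 (AT3G13610), which makes the coumarin scopoletin, had 188, 10.9 and 112 in ssi2 sid2, against 1558, 2760 and 606 in ssi2. It fell by 3.97 ± 0.68 (SE, limma adjusted p = 0.00962), a call lost with the 6 arrays alone (0.0561) and with a pseudocount of 1 (0.052). It had 1.98 to 21.8 in ssi2 act1 and 2.08 to 2.54 in wild type. Its excess in ssi2 sid2 over wild type, 2.28, did not pass (adjusted p = 0.0706). XTH29, a xyloglucan-modifying cell wall enzyme, fell by 2.35 ± 0.47 (SE, limma adjusted p = 0.019), and the signal peptide gene RALFL18 fell by 1.74 ± 0.32 (SE, adjusted p = 0.0134). XTH29 lost its call without ssi2 replicate 2 or 3 or ssi2 sid2 replicate 1 or 3 (0.0562 to 0.0957) and with a pseudocount of 1 (0.117), and RALFL18 without ssi2 sid2 replicate 1 (0.0639) or 2 (0.0502).

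Several of the largest falls were in genes known here only by locus. AT1G57650 had 19, 2.29 and 3.52 in ssi2 sid2, against 490, 1159 and 691 in ssi2, and AT2G44240 had 22, 1.72 and 5.31 in ssi2 sid2, against 270, 909 and 186 in ssi2. AT4G39830 had 58.6, 66.2 and 57.1 in ssi2 sid2, against 579, 702 and 542 in ssi2. The spread within each group is small beside the gap for AT4G39830, and the 3 genes fell by 5.01 ± 0.33, 3.95 ± 0.51 and 3.02 ± 0.33 (SE, limma adjusted p = 2.07e-05, 0.00167 and 0.000661). AT1G30700 had 1.42 to 7.48 in ssi2 sid2, against 277 to 342 in ssi2, and fell by 4.02 ± 0.63 (SE, limma adjusted p = 0.00652). The calls of AT2G37750, AT5G62150, AT5G24210, AT2G44010, AT1G52200 and AT1G42705, whose differences were between -4.13 and -3.04, held only in part. AT5G62150 lost its call without ssi2 sid2 replicate 3 (limma adjusted p = 0.0698). AT2G37750 lost it without ssi2 replicate 2 or 3 or ssi2 sid2 replicate 1 or 3 (0.0547 to 0.0911), and AT1G42705 likewise without the same 4 arrays (0.0579 to 0.0964). AT2G44010 lost it without any one of the 6 arrays (0.0654 to 0.154), AT1G52200 without any but ssi2 sid2 replicate 2 (0.092 to 0.203), and AT5G24210 without any but ssi2 replicate 1 (0.0664 to 0.137). Other pseudocounts also ended the calls of AT2G44010 (0.112), AT1G52200 (0.0569 and 0.0818), AT5G24210 (0.0562 and 0.0634) and AT1G42705 (0.0535). With the 6 arrays alone AT1G52200 (0.0526), AT5G24210 (0.0833) and AT1G42705 (0.0882) were not called, nor were AT2G44010 after quantile normalization (0.0559) and AT1G52200 after median centring (0.0531).

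The raised genes fell into differing patterns over the other genotypes. For 9 of the 15 highest, every ssi2 array lay below all 9 arrays of the other genotypes. ECS1, a cell wall protein gene, had 21417, 19303 and 22179 in ssi2 sid2, against 116, 99.2 and 107 in ssi2, and 18885 to 28133 in ssi2 act1 and 13751 to 21855 in wild type. Its ssi2 sid2 level lay within the range of wild type and ssi2 act1 together, and it rose by 7.41 ± 0.24 (SE, limma adjusted p = 2.93e-08). AT1G23130 had 8485, 6056 and 8682 in ssi2 sid2, against 5.95, 40.8 and 41.6 in ssi2, and 8172, 16455 and 10583 in wild type (7.53 ± 0.38 SE, adjusted p = 2.43e-06). AGL87, a MADS-box transcription factor, had 1285, 603 and 1592 in ssi2 sid2, against 2.27, 20.1 and 9.29 in ssi2, and 182 to 645 in wild type (5.42 ± 0.48 SE, adjusted p = 0.000158). AT1G50290 had 346, 447 and 343 in ssi2 sid2, against 4.02, 7.69 and 2.9 in ssi2, and 123 to 257 in wild type (4.24 ± 0.34 SE, adjusted p = 7.25e-05). AT1G58150 had 239, 221 and 196 in ssi2 sid2, against 8.25, 4.08 and 4.92 in ssi2, and 346 to 394 in wild type (3.43 ± 0.29 SE, adjusted p = 0.000106). AT2G01090, AT4G19500, AT4G20480 and AT4G16880 were also lowest on the ssi2 arrays, with differences between 4.36 and 4.97. AT4G16880 in ssi2 sid2 also exceeded wild type by 1.58 ± 0.34 and ssi2 act1 by 1.88 ± 0.34 (SE, limma adjusted p = 0.0173 and 0.00787). With a pseudocount of 1 both of these calls were lost (0.111 and 0.0612). That against wild type was also lost without wild type replicate 3 or ssi2 sid2 replicate 1 or 3 (0.0547 to 0.0687). These genes thus had their lowest signals in ssi2, and the 9 calls held in all 14 alternatives.

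**Figure D3:**
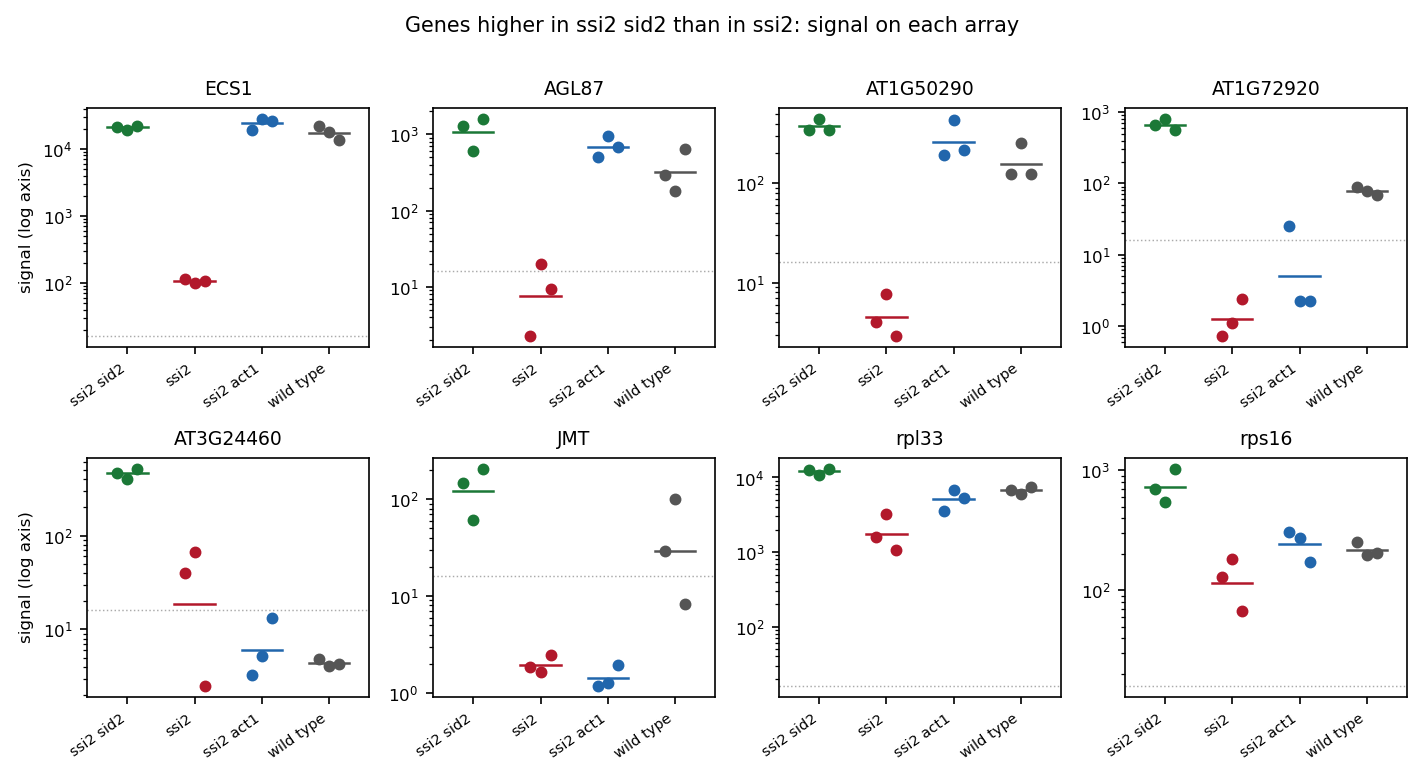
Signal of 8 genes that rose in ssi2 sid2 relative to ssi2, on each of the 12 arrays (log axis; points are arrays, lines geometric means of 3, the dotted line marks a signal of 16). ECS1, AGL87 and AT1G50290 are low on the 3 ssi2 arrays alone, AT1G72920 and AT3G24460 are highest in ssi2 sid2, and JMT is low in both ssi2 and ssi2 act1.

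A second pattern was a level in ssi2 sid2 above all other genotypes. AT1G72920 had 653, 809 and 556 in ssi2 sid2, against 0.716, 1.08 and 2.41 in ssi2, 25.5, 2.21 and 2.26 in ssi2 act1 and 89.6, 79.3 and 69.4 in wild type. It rose by 5.29 ± 0.31 (SE, limma adjusted p = 8.71e-06) and exceeded wild type by 2.84 ± 0.31 (adjusted p = 0.00085). AT3G24460 had 466, 403 and 516 in ssi2 sid2, against 39.8, 66.7 and 2.5 in ssi2, and at most 13.2 on the arrays of ssi2 act1 and wild type. It rose by 3.43 ± 0.44 (SE, adjusted p = 0.00161) and exceeded wild type by 4.54 ± 0.44 (adjusted p = 0.000483). AT4G12830 had 1672, 1883 and 1848 in ssi2 sid2, against 177, 250 and 39.2 in ssi2, and 131, 116 and 328 in wild type (3.68 ± 0.55 SE, adjusted p = 0.00488).

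AT2G27420 had 2270, 646 and 3052 in ssi2 sid2 and 325, 203 and 11.6 in ssi2, and AT1G23205 had 1971, 531 and 2603 in ssi2 sid2 and 199, 208 and 22 in ssi2. In both genes the second ssi2 sid2 array was the lowest of its group and the third ssi2 array the lowest of its own. Their differences of 3.71 ± 0.82 and 3.53 ± 0.73 (SE) passed the limma test (adjusted p = 0.0321 and 0.0231). Both calls were lost without ssi2 replicate 3 (0.056 and 0.059), ssi2 sid2 replicate 1 (0.124 and 0.102) or ssi2 sid2 replicate 3 (0.154 and 0.12), that of AT2G27420 also without ssi2 replicate 2 (0.0582). With the 6 arrays alone they were lost too (0.106 and 0.0798), as with a pseudocount of 1 (0.103 and 0.0552).

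Jasmonate genes were called in both directions. JMT, which methylates jasmonic acid to the volatile methyl jasmonate, had 146, 61.1 and 207 in ssi2 sid2, against 1.86, 1.65 and 2.44 in ssi2. In ssi2 act1 it had 1.18 to 1.96, and in wild type 29.3, 101 and 8.25, which overlaps the ssi2 sid2 range. JMT rose by 2.97 ± 0.50 (SE, limma adjusted p = 0.00888), and the call was lost without ssi2 sid2 replicate 3 (0.0512). PDF1.2b, a plant defensin induced by jasmonate with ethylene, had 2373, 6155 and 853 in ssi2 sid2, against 394, 101 and 209 in ssi2, and 801, 6448 and 937 in wild type. It rose by 3.41 ± 0.82 (SE, limma adjusted p = 0.0469), a call lost without any one of ssi2 replicates 1 to 3 or ssi2 sid2 replicates 1 and 2 (0.0552 to 0.158), with pseudocounts of 1 and 64 (0.0786 and 0.0709) and with the 6 arrays alone (0.0644). Its probe set may also bind transcripts of near-identical defensin copies, so which copy it reports is uncertain. PDF1.2 had 2244, 6945 and 472 in ssi2 sid2, against 315, 56.1 and 23.6 in ssi2, and a difference of 4.33 that did not pass (adjusted p = 0.0646), although it passed after median centring (0.0467), with the filter on dim probe sets (0.0433), with the replicate number as a block (0.0317), with array weights (0.00101) and without ssi2 replicate 1 (0.0472).

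Over the 11 measured genes of jasmonate signalling and response 2 rose, JMT and PDF1.2b, and 1 fell, THI2.1, or 18.2% and 9.09% against 1.44% and 1.54% over all genes. Of the 11 differences 8 were positive, against 5851 of 13356 over all genes, and without ssi2 replicate 3 the counts were 1 higher and 1 lower. The median was 0.69, against -0.06 over all genes. These 11 genes do not include OSM34. A shorter list, of jasmonate and ethylene synthesis and response, had 5 measured genes, PDF1.2, PDF1.2b, THI2.1, JMT and OSM34. In it 2 rose, JMT and PDF1.2b, and 2 fell, THI2.1 and OSM34. Without ssi2 replicate 3 the counts of this list were 1 higher and 2 lower. The balance of the calls thus depends on which genes are listed. MYC4, a transcription factor of the pathway, had 427, 212 and 448 in ssi2 sid2, against 134, 192 and 98.1 in ssi2. CHAT, an acetyltransferase of leaf volatiles, had 183, 125 and 290 in ssi2 sid2, against 98.7, 68 and 66 in ssi2. The ranges of these genes do not overlap, but neither passed the limma test (adjusted p = 0.076 and 0.0978). MYC4 was called without ssi2 sid2 replicate 2 (0.0361).

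Photosynthesis genes had small positive differences. Of 25 nuclear photosynthesis genes 24 had a positive difference, against 5851 of all 13356 genes, and 2 rose, 8.0% against 1.44%. Without ssi2 replicate 3 none of the 25 was called. The median was 0.61, which was 0.54 after quantile normalization and 0.77 after median centring. A shorter photosynthesis list had 9 measured genes, all of them among the 25. All 9 had a positive difference and 0 were called, with a median of 0.27, so the size depends on which genes are listed. PGRL1B, of cyclic electron flow, had 1294, 1625 and 1201 in ssi2 sid2, against 386, 694 and 540 in ssi2, and 786, 1320 and 757 in wild type. LPA19, an assembly factor of photosystem II, had 1844, 1275 and 1536 in ssi2 sid2, against 623, 741 and 509 in ssi2, and 1100, 1331 and 1145 in wild type. Neither pair of groups overlaps, and the differences were 1.35 ± 0.30 and 1.29 ± 0.28 (SE, limma adjusted p = 0.0329 and 0.0289). The 2 calls were lost without ssi2 replicate 1 or 3 or ssi2 sid2 replicate 1 or 3 (0.0646 to 0.126), that of LPA19 also without ssi2 replicate 2 (0.0535) and that of PGRL1B also without ssi2 sid2 replicate 2 (0.101). Both were lost with a pseudocount of 1 (PGRL1B 0.0827, LPA19 0.0783) and with the replicate number as a block (PGRL1B 0.051, LPA19 0.0548). With the 6 arrays alone PGRL1B was not called either (0.0541). Among the brightest members the groups overlapped: LHCB4.1, a light-harvesting protein, had 13978, 15372 and 16997 in ssi2 sid2 and 17959, 12781 and 13426 in ssi2.

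Of 69 genes encoded in the chloroplast genome 59 had a positive difference, against 5851 of 13356 over all genes, and 3 rose, 4.35% against 1.44%, or 2 without ssi2 replicate 3. The median was 0.37, and 0.32 and 0.52 after quantile normalization and median centring. Ribosomal protein gene rpl33 had 12581, 10941 and 13168 in ssi2 sid2, against 1612, 3222 and 1073 in ssi2, and 6692, 6088 and 7442 in wild type. It rose by 2.77 ± 0.37 (SE, limma adjusted p = 0.00218). Another ribosomal protein gene, rps16, had 695, 540 and 1035 in ssi2 sid2, against 130, 181 and 66.9 in ssi2, and 252, 199 and 206 in wild type. It rose by 2.48 ± 0.35 (SE, adjusted p = 0.0035) and also exceeded wild type by 1.67 ± 0.35 (adjusted p = 0.0163), a call lost without wild type replicate 3 or ssi2 sid2 replicate 1 or 3 (up to 0.0895). The NADH dehydrogenase-like subunit gene ndhK had 2771, 2559 and 2665 in ssi2 sid2, against 712, 1065 and 1080 in ssi2, and 2505 to 4480 in wild type. Its rise of 1.49 ± 0.33 (SE, adjusted p = 0.0316) lost its call without any one of the 6 arrays (0.0613 to 0.122) and with a pseudocount of 1 (0.0755).

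**Figure D4:**
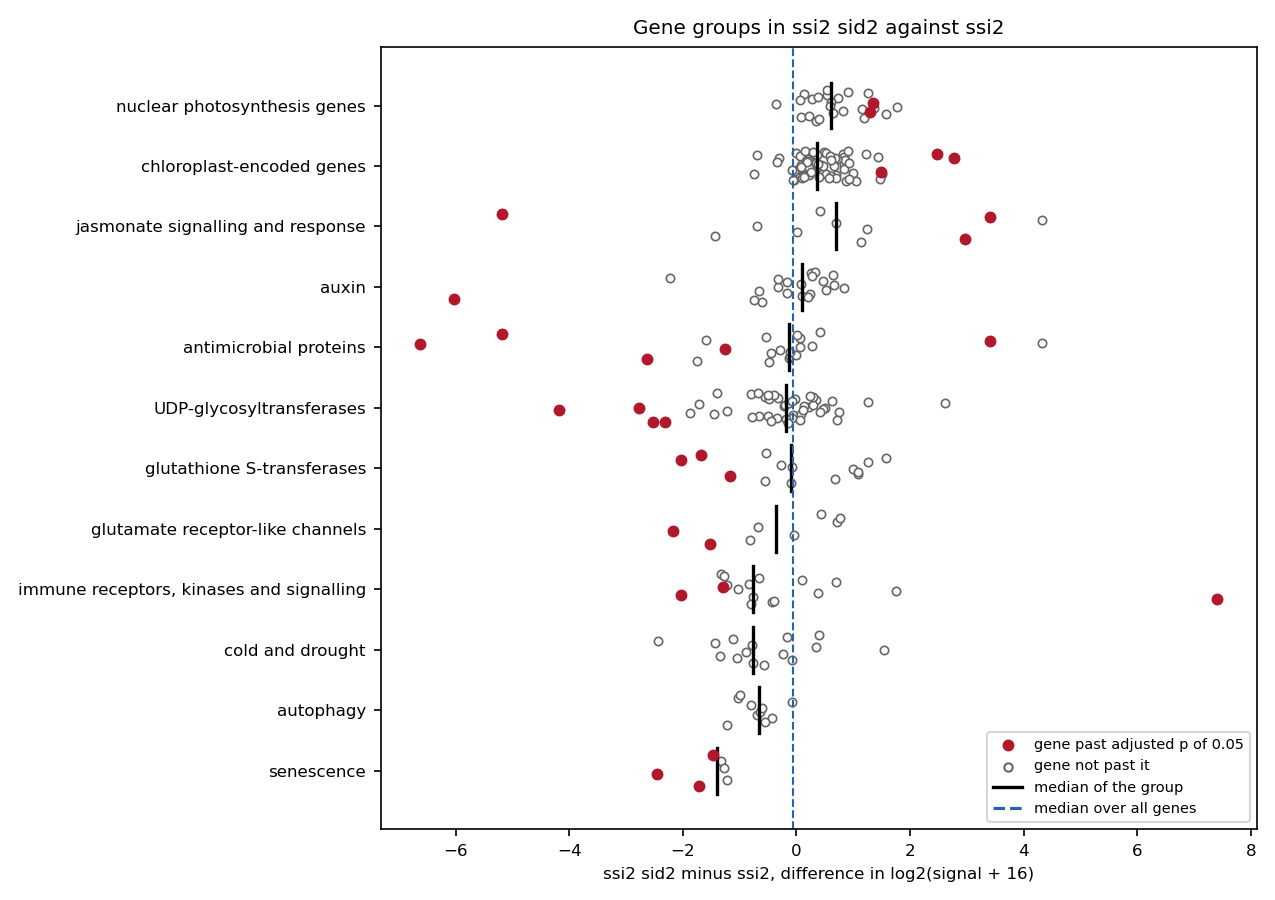
Differences ssi2 sid2 minus ssi2 in log2(signal + 16) of the genes of 12 groups, 1 point a gene, filled where the limma adjusted p was under 0.05, with the median of each group (black bar) and over all genes (dashed, -0.06). Photosynthesis and chloroplast-encoded genes lie mostly right of the dashed line and the 10 autophagy and 6 senescence genes left of it.

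Other groups had no called member. All 10 autophagy genes, which build the membrane that delivers cell contents to the vacuole, had negative differences with a median of -0.67, and none passed limma's test. APG8A, an ATG8 ubiquitin-like protein, had 1310, 1218 and 876 in ssi2 sid2, against 2020, 2463 and 3691 in ssi2, with an adjusted p of 0.158. Of 15 cold and drought genes 12 were negative and none was called, with a median of -0.77. LTI30, a dehydrin, had 203, 250 and 130 in ssi2 sid2, against 563, 1249 and 1801 in ssi2 (-2.43 ± 0.84 SE, adjusted p = 0.161). Of 14 genes for endoplasmic reticulum stress and folding 12 were negative, with a median of -0.32 and no call. The 4 jacalin-like lectins had a median of -1.20 and the 7 calmodulin-like proteins of -0.78, again with no call, and 1 lectin, JAL23, was called lower without ssi2 replicate 3. JAL34 had 157, 278 and 115 in ssi2 sid2, against 301, 386 and 667 in ssi2. Flavonoid genes were not called either, and their median of -0.09 turned to 0.07 after median centring.

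Cell wall and sugar enzymes had single raised members. BGLU40, a beta-glucosidase, had 1025, 649 and 1680 in ssi2 sid2, against 308, 399 and 131 in ssi2, and rose by 1.97 ± 0.40 (SE, limma adjusted p = 0.0215), while 16 of the 21 beta-glucosidases had negative differences. BGLU40 was the only called member of the 21, 4.76% higher against 1.44% over all genes. Without ssi2 replicate 3 none of the 21 was called higher and 1, PYK10, lower. EXLB1, an expansin-like protein, had 672, 317 and 713 in ssi2 sid2, against 216, 169 and 63.2 in ssi2, and rose by 1.87 ± 0.41 (SE, adjusted p = 0.0295). Both calls were lost without ssi2 replicate 3 (0.0572 and 0.0754) or ssi2 sid2 replicate 1 (0.0787 and 0.123) or 3 (0.106 and 0.144), that of EXLB1 also without ssi2 replicate 2 (0.0632). Neither was called with the 6 arrays alone (0.0882 and 0.0974), nor was EXLB1 with a pseudocount of 1 (0.0645). SWEET17, a vacuolar fructose transporter, had 2429, 1242 and 2109 in ssi2 sid2, against 1021, 541 and 139 in ssi2, which did not pass (adjusted p = 0.0786, 0.0262 without ssi2 replicate 1).

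Guard cell and phloem markers were measured by 1 gene each. FMA, a guard cell transcription factor, had 243, 275 and 269 in ssi2 sid2 and 124, 231 and 231 in ssi2 (0.44 ± 0.28 SE, limma adjusted p = 0.494). SWEET11, a phloem sucrose transporter, had 5693, 7077 and 5118 in ssi2 sid2 and 4131, 3798 and 3441 in ssi2 (0.64 ± 0.27 SE, adjusted p = 0.262). Both genes had ranges that do not overlap and neither passed the test, and their part in the other differences was not tested.

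Against wild type, ssi2 sid2 had 823 higher and 635 lower probe sets, 3.62% and 2.79% of those tested. The probe sets lowered relative to ssi2 were mostly not among them: 52 of 389 differed from wild type, 36 above it and 16 below. Of the 322 raised, 101 differed from wild type, 97 above it and 4 below. The ssi2 sid2 arrays enter both comparisons. Counts against wild type without 1 array were 269 to 917 higher and 192 to 832 lower. Without wild type replicate 1 they were 439 and 329, without wild type replicate 3 482 and 341, without ssi2 sid2 replicate 1 340 and 276, and without ssi2 sid2 replicate 3 269 and 192.

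The 2 double mutants were compared directly by ssi2 sid2 minus ssi2 act1. The arrays of the ssi2 single mutant drop out of this difference but enter the shared estimate of the spread. Of all probe sets 901 were higher in ssi2 sid2, 3.96%, and 555 lower, 2.44%. AT3G22240 had 109, 248 and 100 in ssi2 sid2, against 18436, 24512 and 23422 in ssi2 act1, and 21751, 5932 and 18776 in wild type. The ssi2 arrays had 460, 444 and 445, so it stayed low in ssi2 sid2 (ssi2 sid2 minus ssi2 act1 -7.13 ± 0.45 SE, limma adjusted p = 2.47e-05). AT1G50040 had 32.1, 30.7 and 15.1 in ssi2 sid2, against 764, 1132 and 388 in ssi2 act1 and 395, 128 and 331 in ssi2, lower than both (-4.11 ± 0.45 SE and adjusted p = 0.00109 against ssi2 act1, -2.73 ± 0.45 SE and adjusted p = 0.00728 against ssi2). AT3G61160 was also lower than ssi2 act1, by -4.19 ± 0.70 (SE, adjusted p = 0.00598). COR47, a dehydrin, had 1223, 4142 and 944 in ssi2 sid2, against 13882, 8196 and 10704 in ssi2 act1, and 10838 to 18322 in wild type. It differed by -2.65 ± 0.55 from ssi2 act1 (SE, limma adjusted p = 0.0156) and by -2.96 ± 0.55 from wild type (adjusted p = 0.00925), calls lost without ssi2 sid2 replicate 3 (highest 0.0861 and 0.0528), the first also without ssi2 sid2 replicate 1 or ssi2 act1 replicate 3. COR27, AT4G16000 and AT3G15440 were also lower in ssi2 sid2 than in ssi2 act1, COR27 by -3.61 and AT4G16000 by -3.91, calls that were lost without ssi2 act1 replicate 2 or ssi2 sid2 replicate 1 or 3, and for COR27 and AT3G15440 also without ssi2 act1 replicate 3 (highest limma adjusted p 0.0734 to 0.104). Relative to ssi2, these 3 genes were called under no alternative (limma adjusted p 0.156 to 0.992). Among the alternatives COR47 was called relative to ssi2 only with array weights (0.00529). AT3G61160 was so called only with array weights (0.00083) and the filter on dim probe sets (0.0404). Without 1 array the counts were 313 to 832 higher and 103 to 581 lower. Without ssi2 act1 replicate 2 they were 474 and 211, without ssi2 act1 replicate 3 501 and 220, without ssi2 sid2 replicate 1 343 and 142, and without ssi2 sid2 replicate 3 313 and 103.

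Among genes higher in ssi2 sid2 than in ssi2 act1, AT5G04380 had 1750, 1595 and 2128 in ssi2 sid2, against 1.56, 15.7 and 20.4 in ssi2 act1, 288, 602 and 23.8 in ssi2 and 3.47 to 12.8 in wild type. AT2G15020 had 1335, 738 and 1145 in ssi2 sid2, against 1.97, 2.11 and 2.09 in ssi2 act1 and 337, 408 and 2.24 in ssi2. AT5G42760 had 4042, 1532 and 4077 in ssi2 sid2, against 15.1, 60.6 and 17.3 in ssi2 act1 and 1005, 1182 and 32.7 in ssi2. The gap to ssi2 act1 exceeded the spread in each, by 6.07 ± 0.75, 5.87 ± 0.90 and 6.10 ± 0.97 (SE, limma adjusted p = 0.00176, 0.00449 and 0.00483), while the third ssi2 array lay far below the other two. AT1G43910 was 5.10 ± 0.71 higher than in ssi2 act1 (SE, adjusted p = 0.00308). Relative to ssi2, AT1G43910 was called under no alternative (limma adjusted p 0.193 to 0.896). PDF1.2b was 5.76 ± 0.82 higher than in ssi2 act1, where it had 29.6, 36.2 and 17.6 (limma adjusted p = 0.00337), and JMT was 3.01 ± 0.50 higher (adjusted p = 0.00598). Of the 11 jasmonate genes 5 were higher in ssi2 sid2 than in ssi2 act1 and 0 lower, against 431 and 334 of all 13356 genes. Their median was 1.80, against -0.03 over all genes. The 5 were JMT, PDF1.2b, PDF1.2, MYC4 and CHAT. PDF1.2 exceeded ssi2 act1 by 5.16 ± 1.13 (SE, adjusted p = 0.02), a call lost without any one of ssi2 act1 replicates 1 to 3 or ssi2 sid2 replicates 1 and 2 (highest 0.0792).

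The called genes were also counted by chromosome. Of genes measured on chromosomes 1 and 4, 2.35% and 2.38% rose, against 1.15%, 0.846% and 0.503% on chromosomes 2, 3 and 5. Genes that fell made up 1.91% and 1.76% on chromosomes 1 and 4 and 1.34%, 1.32% and 1.37% on chromosomes 2, 3 and 5. Within 5 measured genes on either side, 42 of 189 raised genes had another raised gene, 22.2%, and 12.8% of all 13217 measured genes had one. Of 205 lowered genes 36, or 17.6%, had another lowered gene within that distance, which 14.0% of all measured genes had. No test was made of these shares, and gene order is that of RefSeq TAIR10.1. The raised genes with their lowest signals in ssi2 include AT1G23130, AT1G50290 and AT1G58150, by locus code on chromosome 1. AT4G16880, AT4G19500 and AT4G20480 among them lie on chromosome 4, and AT2G01090 on chromosome 2. Whether differences between the lines other than sid2 enter these values was not tested.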

How the data were processed

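Leaf RNA of 12 samples was hybridised to ATH1 arrays, 3 for each of 4 genotypes, and groups follow the genotype in the labels. Each probe set has 1 linear signal intensity per array, as deposited by the authors. Affymetrix Expression Console 1.0 was used per the submitters' processing notes, and how probes were summarised and scaled is not stated there or in the labels. In the values every array has a trimmed mean of 500 to 500.1 (2% trimmed at each end). Only summarised values were used, so background correction could not be varied, and depth is not defined for arrays, whose number limits the precision.

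Of 22810 probe sets, 64 controls were left out and 22746 tested. The annotation gave 13513 probe sets 1 gene, 503 several and 8794 none, and 13436 of those with 1 gene were matched to RefSeq TAIR10.1, used for symbols and gene order only. For a gene with several probe sets the brightest over 12 arrays stood for it, which left 13356 genes.

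From these values log2(signal + 16) was computed, and a fold on this scale understates the change of dim genes. limma 3.58.1 in R 4.3.3 fitted a mean per genotype over all 12 arrays, so the 4 genotypes shared 1 estimate of the spread. Its moderated test (eBayes, two-sided) was adjusted by Benjamini-Hochberg over all probe sets, with a threshold of 0.05. The procedure was run on simulated data with noise drawn independently for each probe set and array. Arrays that stand apart as a whole were not simulated, so that run says nothing about them. No 2 arrays were identical, and the labels give no batch or scan date. Replicate numbers did not pair the arrays.

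Genes were named by rule: the 15 highest and 15 lowest called differences whose arrays do not overlap, up to 5 called members of each gene list (up to 3 in each direction) or its member with the largest difference where none was called, and the 6 highest and 6 lowest against ssi2 act1. CHI, LCR69, WES1, WRKY53, PUB22, GLR2.7, JAL23, MYC4, CHAT, UGT74F1, BSMT1, RCA and LHCB4.1 were chosen after their values were seen. Members and gene lists were chosen with earlier results of these data known, and the groups were drawn from annotation symbols. The alternatives tried were 2 other scalings (quantile normalization and median centring), a filter removing probe sets with a mean under the 40th percentile, the replicate number as a block, the 6 arrays alone, array weights, pseudocounts of 1 and 64, and leaving out each array in turn.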

Additional observations from a re-analysis of the deposited data

Results flagged for a closer look

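The control probe set for 25S ribosomal RNA, which no comparison used, had a signal of 1817 on the array of ssi2 replicate 3, and 174 to 600 on the other 11 arrays. This array also stood apart from the other ssi2 arrays on the second principal component. The part of this signal in the differences between ssi2 sid2 and ssi2 was not tested.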

How the results depend on the processing

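The calls depended on how each array was weighted and on the pseudocount, while none of the named called genes changed sign. With array weights, ssi2 sid2 against ssi2 gave 2087 higher and 3417 lower probe sets, against ssi2 act1 2386 and 2280, and against wild type 2361 and 2307. These weights are estimated from the same arrays and gave ssi2 replicate 2 a weight of 5.78 and ssi2 replicate 3 a weight of 0.397. With a pseudocount of 1 the counts against ssi2 were 175 higher and 204 lower, and the lower counts were 303 against ssi2 act1 and 396 against wild type. Leaving out 1 array gave 109 to 247 higher and 124 to 361 lower against ssi2, 313 to 832 and 103 to 581 against ssi2 act1, and 269 to 917 and 192 to 832 against wild type. With the replicate number as a block, 239 probe sets were higher and 315 lower against ssi2, 784 and 402 against ssi2 act1, and 702 and 505 against wild type. The numbers did not pair the arrays: deviations of same-numbered ssi2 sid2 and ssi2 arrays correlated at 0.335, -0.245 and -0.248. Of the 711 probe sets called against ssi2, 633 were also called after quantile normalization, 563 after median centring, 566 with the filter on dim probe sets, 479 with the 6 arrays alone and 360 with a pseudocount of 1. The filter also takes probe sets out of the test, so the rest were not all tested under it. Without ssi2 sid2 replicate 1, 271 of the 711 were called, and 231 without ssi2 sid2 replicate 3. Of the 30 highest and lowest genes, 20 were called under all 14 alternatives. Of all 61 called genes named by rule, 28 were called under every alternative that tested them. Probe sets with signals under 16 limit what can be measured, since the floor compresses their differences, and 3 arrays a genotype limit the precision.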

Other observations

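Single members of other families were called as well. scpl16, a serine carboxypeptidase-like protein, had signals of 1.19, 1.56 and 1.49 in ssi2 sid2, against 30.7, 38.8 and 179 in ssi2 (-2.19 ± 0.45 SE, limma adjusted p = 0.0237). AGL18, a MADS-box factor, had 92.8, 77.2 and 87.8 in ssi2 sid2, against 212, 217 and 334 in ssi2 (-1.38 ± 0.29 SE, adjusted p = 0.0267). UBC28, a ubiquitin-conjugating enzyme, had 12327, 15031 and 9626 in ssi2 sid2, against 5510, 4536 and 6641 in ssi2 (1.14 ± 0.26 SE, adjusted p = 0.0341), and TBL43 of the trichome birefringence-like family had 47.2, 102 and 63.2 in ssi2 sid2, against 6.58, 17.2 and 23.9 in ssi2 (adjusted p = 0.0491). In each gene the 2 groups do not overlap, and all 4 calls were lost without ssi2 sid2 replicate 1, 2 or 3 (limma adjusted p = 0.0614 to 0.153). They were lost without ssi2 replicate 2 as well for AGL18, UBC28 and TBL43 (0.0618 to 0.127), and without ssi2 replicate 1 for UBC28 (0.0732) and TBL43 (0.131) or ssi2 replicate 3 for AGL18 (0.0921) and TBL43 (0.0646). With the replicate number as a block AGL18 (0.0553), UBC28 (0.0664) and TBL43 (0.0753) were not called. With the 6 arrays alone scpl16 (0.0812), UBC28 (0.0738) and TBL43 (0.0714) were not. AGL18 and UBC28 were lost after quantile normalization (0.0653 and 0.0528), AGL18 after median centring (0.0821), AGL18, UBC28 and TBL43 with a pseudocount of 1 (0.0637, 0.0984 and 0.167) and scpl16 with a pseudocount of 64 (0.0936).

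In 2 genes of light harvesting and flavonol glycosylation the second ssi2 sid2 array stood below the others of its group. LHCB4.3 had 8541, 1512 and 8487 in ssi2 sid2, against 4456, 2709 and 330 in ssi2 (limma adjusted p = 0.414), and 151 to 304 in ssi2 act1 and 170 to 252 in wild type. UGT78D1 had 1950, 291 and 2056 in ssi2 sid2, against 382, 210 and 43.7 in ssi2 (adjusted p = 0.0972, 0.0234 without ssi2 sid2 replicate 2). LHCB4.3 overlapped between ssi2 sid2 and ssi2.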
